A study of Mus musculus with 22 samples.

Results

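A set of 10 genes of the Wnt pathway was followed across the 4 deposited H3K4me3 comparisons of mouse synovial fibroblasts: the ligand genes Wnt5b, Wnt9a and Wnt10a, the receptor genes Fzd1 and Fzd4, the genes of the secreted proteins Dkk2, Dkk3 and Sfrp1, the receptor ligase gene Rnf43 and the feedback gene Axin2. Every listed region that the deposited annotation assigned to one of these 10 genes was taken, whatever its position in the gene, which gave 21 regions of 26201 and 10 genes of 7858. By table these were 10 regions of 5 genes at 3 weeks, 2 regions of 2 genes at 8 weeks, 8 regions of 8 genes at 11 weeks and 1 region in the TNF comparison. H3K4me3 was lower in the treated group at 18 of these regions and higher at 3. The 3 higher regions, of Wnt9a, Dkk2 and Dkk3, were all in the 11 week table. Lower regions also prevailed among all listed regions, whatever the gene. The share called lower by the authors' adjusted p (under 0.05) ran from 67.0% in the 11 week table to 89.5% in the 3 week table. Whether the 10 genes differ from that background was not tested.

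Synovial fibroblasts are the stromal cells of the joint lining. Libraries were made from cultured cells at passage 4 to 5, of CBA and C57BL/6J mixed background, in 7 groups of 3. These were wild-type (WT) cells and cells of Tg197 mice (a human TNF transgene that causes arthritis), each at 3, 8 and 11 weeks of age (early, established and late disease in the series design), and WT cells of 8 weeks to which TNF had been added. The dose and duration of TNF, and whether replicate libraries stem from different animals or cultures, are not stated in the labels. The p-values thus measure the spread between these libraries, which may be technical. The WT cells of 8 weeks served as control for both the 8 week and the TNF table.

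H3K4me3, trimethylation of lysine 4 of histone H3, marks the start sites of active genes, and above all those rich in CpG dinucleotides. Wnt ligands are secreted lipid-modified proteins that bind Frizzled receptors, and in the canonical branch this stabilises beta-catenin, which enters the nucleus and acts with TCF/LEF factors. Sfrp proteins bind Wnt ligands outside the cell, and Dkk proteins act at the Lrp coreceptors. Axin2 is a target of the pathway that promotes the breakdown of beta-catenin, and Rnf43 removes Frizzled receptors from the cell surface. In joints the pathway is known for its part in bone formation and in the loss of bone that accompanies TNF-driven arthritis.

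Only 2 of the 21 regions held an annotated transcription start site (TSS), that of Axin2 at 3 weeks and that of Fzd1 in the TNF table, and each spanned the whole stretch from 250 bases before to 50 after it. Start-site sequences were taken from RefSeq (GRCm38.p6), which had entries for 7 of the 10 genes. The stretches given here are those of Axin2 (chr11:108920099-108920398, plus strand) and Fzd1 (chr5:4758167-4758466, minus strand), whose listed regions covered them. Added to these are Wnt9a (chr11:59306680-59306979, plus strand), which gained H3K4me3 just downstream of its start, and the downstream Rnf43 start (chr11:87699647-87699946, plus strand), which is taken up with Rnf43. Capitals mark CpG dinucleotides, and all are written 5′ to 3′ along the gene.
Axin2: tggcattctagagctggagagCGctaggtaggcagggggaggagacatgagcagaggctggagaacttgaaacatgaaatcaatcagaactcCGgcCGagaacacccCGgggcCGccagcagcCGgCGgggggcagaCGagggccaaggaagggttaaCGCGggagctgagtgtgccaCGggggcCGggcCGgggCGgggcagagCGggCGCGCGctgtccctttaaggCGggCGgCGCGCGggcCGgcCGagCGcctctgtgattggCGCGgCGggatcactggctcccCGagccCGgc
Fzd1: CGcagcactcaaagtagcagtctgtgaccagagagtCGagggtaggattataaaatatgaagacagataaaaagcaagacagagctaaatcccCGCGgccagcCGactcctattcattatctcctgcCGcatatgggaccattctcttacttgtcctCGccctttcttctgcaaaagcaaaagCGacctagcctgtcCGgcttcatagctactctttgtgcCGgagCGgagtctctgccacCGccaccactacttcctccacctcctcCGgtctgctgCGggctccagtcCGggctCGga
Wnt9a: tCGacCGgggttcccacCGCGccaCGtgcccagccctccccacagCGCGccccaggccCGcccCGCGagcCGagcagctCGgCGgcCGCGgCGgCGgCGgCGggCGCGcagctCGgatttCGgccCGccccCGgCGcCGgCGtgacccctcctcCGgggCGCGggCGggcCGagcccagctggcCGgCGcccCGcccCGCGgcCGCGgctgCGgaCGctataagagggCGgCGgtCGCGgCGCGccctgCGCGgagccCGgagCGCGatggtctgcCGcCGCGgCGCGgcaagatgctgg
Rnf43 downstream start: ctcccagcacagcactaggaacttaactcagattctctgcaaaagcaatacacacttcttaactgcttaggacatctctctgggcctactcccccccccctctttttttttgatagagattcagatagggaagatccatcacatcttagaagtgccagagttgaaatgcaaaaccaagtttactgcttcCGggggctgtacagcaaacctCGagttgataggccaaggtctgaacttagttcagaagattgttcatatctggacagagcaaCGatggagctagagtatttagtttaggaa
The Wnt9a stretch held 58 CpG dinucleotides, more than 99.9% of the 32851 RefSeq promoter stretches of this length, whose median was 7. Axin2 held 31 (more than 89.4%), Fzd1 16 (more than 67.0%) and the downstream Rnf43 start 3 (more than 23.3%). Among the stretches not shown, the upstream Wnt5b start held 47, Fzd4 32, Dkk2 11 and the upstream Rnf43 start 10. The core of TCF/LEF sites, CTTTGA on either strand, was found in Fzd1, from 242 to 237 bases before the start on the reverse strand, and not in the other stretches shown. It was also found at the Wnt5b start farthest downstream, from position -71 to -66, so that 2 of the 10 stretches of these genes held it. Of all promoter stretches 16% hold it. A kappa-B motif, searched on both strands, was in none of the 10 stretches of these genes and is in 0.411% of all.

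Values below are the authors' normalized reads in a region, given for the 3 libraries of each group in the order of the deposited cell (called a, b and c, since no replicate number is attached), then as mean ± SD with n = 3. Log2 changes are treated minus control on the log2(normalized reads + 0.5) scale, with their standard error and the Benjamini-Hochberg adjusted p of limma over every region of the table. A region is said to have risen or fallen where that p was under 0.05. A region entered a table because a window in it differed at p of at most 0.0001 in the authors' test on these same libraries. Limma's p is therefore not independent evidence, and a gene without a listed region has an unknown level. Reads per library in the listed regions ranged from 1560963 to 2780941 (3 weeks), from 390496 to 849692 (8 weeks), from 807633 to 1096917 (11 weeks) and from 321448 to 1312112 (TNF). WT library c of 8 weeks stood apart, with a median of 105.4 normalized reads over the listed regions against 179.8 and 169.7 in the other WT libraries and 72.7 to 101.1 in the Tg197 libraries. Among Tg197 libraries of 3 weeks, b was lowest (74.8 against 97.0 and 105.9). Most listed regions were lower in the treated group, the median log2 change being -0.70 (3 weeks), -0.86 (8 weeks), -0.60 (11 weeks) and -0.58 (TNF). When every library was divided by its own median of listed regions, the medians became -0.04, -0.15, -0.26 and -0.07. When it was divided by its median of listed regions near a TSS (within 1 kb), they became -1.04, -0.99, -0.74 and -0.68.

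**Figure D1:**
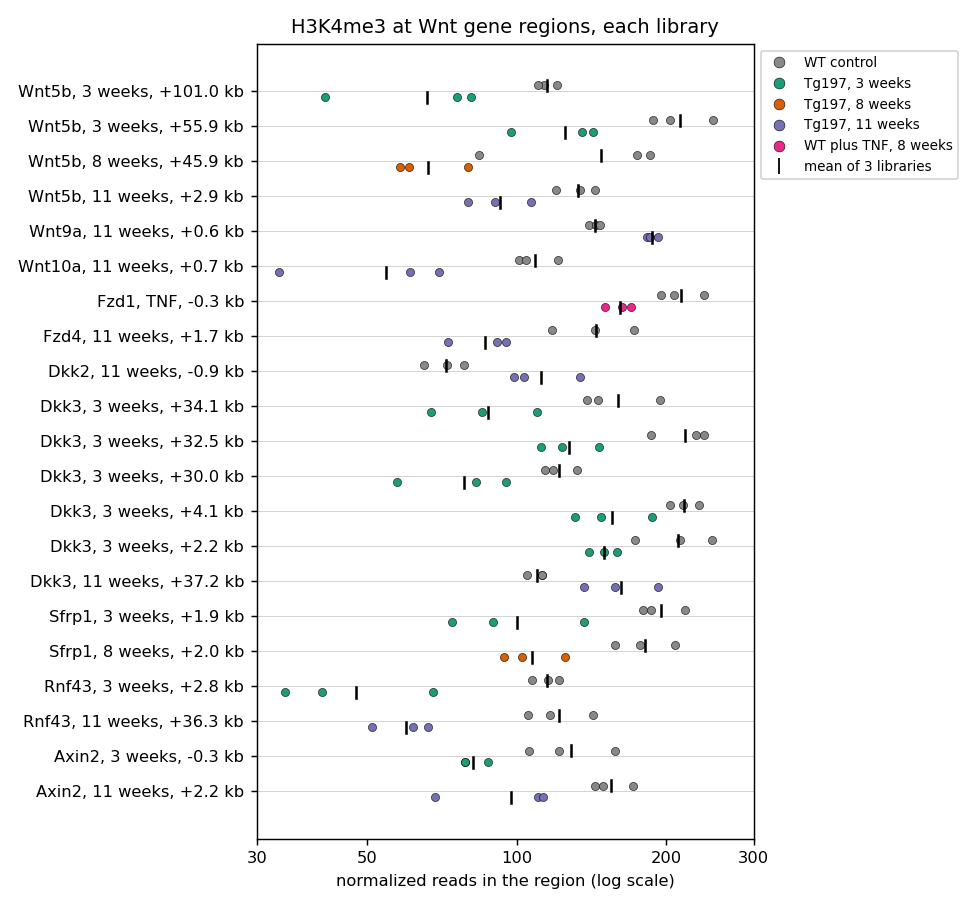
Normalized reads in each of the 21 regions (horizontal axis, log scale) for every library, with rows named by gene, comparison and distance from the TSS. Grey points are the 3 WT control libraries, coloured points the 3 Tg197 or TNF-treated libraries, and vertical ticks the means, and the groups do not overlap in any row.

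Among the ligands, H3K4me3 moved in opposite directions at the starts of Wnt9a and Wnt10a in late disease. At Wnt10a, a canonical ligand that promotes bone formation, the region from 209 to 1208 bp downstream of the TSS (chr1:74838801-74839800, mm9) held 33.2, 69.7 and 61.1 normalized reads in Tg197 cells of 11 weeks against 121.4, 101.2 and 104.5 in WT. All 3 Tg197 libraries were below the lowest WT library, and Tg197 library a was the lowest. The means were 54.7 ± 19.1 and 109.0 ± 10.9, and the region fell by 1.05 on the log2 scale (SE 0.26, limma adjusted p = 0.00447). Of the 672 regions of its class (250 bp to 1 kb from a TSS) in the 11 week table, 0.3% had a lower change, and the median change of the class was 0.21.

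Wnt9a encodes a ligand expressed in developing joints, where it takes part in setting up the joint interzone. Its region began 70 bp and ended 1069 bp downstream of the TSS (chr11:59120501-59121500, mm9) and held 192.7, 183.4 and 185.9 in Tg197 cells of 11 weeks against 140.2, 144.8 and 147.2 in WT. The libraries were close to each other within both groups (187.3 ± 4.8 and 144.0 ± 3.6), the tightest spread of the 21 regions, and the region rose 1.3-fold (log2 change 0.38, SE 0.11, limma adjusted p = 0.0064). In the class of 672 regions that it shared with Wnt10a, 65.0% had a lower change than Wnt9a, and the median change was 0.21. With scaling to regions near a TSS the Wnt9a change was 0.23 and did not pass (limma adjusted p = 0.0663). Per kb the WT level was 144.0 normalized reads at Wnt9a and 109.0 at Wnt10a.

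Wnt5b, a ligand of the non-canonical branch, was listed at all 3 ages, each time at another place in its 111.8 kb gene. At 3 weeks the regions lay 101.0 and 55.9 kb downstream of the TSS, at 8 weeks 45.9 kb and at 11 weeks 2.9 kb, and no region of one age overlapped that of another, the nearest being 8.5 kb apart. At 55.9 kb (chr6:119437601-119439400, mm9) the Tg197 libraries of 3 weeks held 135.1, 97.4 and 142.6 against 203.7, 187.8 and 248.9 in WT. The groups did not overlap, and the region fell by 0.78 (SE 0.20, limma adjusted p = 0.0143), while that at 101.0 kb (chr6:119392901-119393900, mm9) held 81.1, 41.2 and 76.0 against 113.4, 110.7 and 120.8 and fell by 0.85 (SE 0.29, limma adjusted p = 0.0173). Tg197 library b was the lowest at both. Among the 6357 gene-body regions at 3 weeks, 38.4% had a lower change than the region at 55.9 kb. For that at 101.0 kb the share was 23.8%. Near the start at 11 weeks (chr6:119490901-119492100, mm9) the Tg197 libraries held 107.1, 79.9 and 90.4 against 143.5, 134.3 and 120.2, a fall of 0.53 (SE 0.16, limma adjusted p = 0.00717), equal to the median of its class, -0.53. The 8 week region held 58.2, 60.7 and 80.0 in Tg197 against 185.7, 174.4 and 83.9 in WT. WT library c lay just above the highest Tg197 library there, and the log2 change of -1.08 (SE 0.38) did not pass (limma adjusted p = 0.0725). Among the 937 gene-body regions at 8 weeks, 39.4% had a lower change.

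Of the receptors, Fzd4 was listed at 11 weeks and Fzd1 with TNF. Fzd4 encodes a Frizzled receptor that also serves the ligand norrin in blood vessel growth. Its region, 1226 to 2225 bp downstream of the TSS (chr7:96554101-96555100, mm9), held 95.3, 72.7 and 91.3 in Tg197 cells against 172.2, 117.7 and 143.8 in WT. Every Tg197 library was below every WT library, and the region fell to 59.8% of WT (log2 change -0.73, SE 0.18, limma adjusted p = 0.00441). In its class of 861 regions 11.4% had a lower change.

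Fzd1, whose receptor responds to canonical ligands, was the single gene of the set listed after addition of TNF. The region over its start (chr5:4758001-4759000, mm9), from position -785 to 214 bp relative to the TSS and covering the sequence shown above, held 170.0, 150.7 and 162.9 in TNF-treated cells against 238.5, 207.8 and 195.5 in untreated WT cells. The groups did not overlap (161.2 ± 9.8 against 214.0 ± 22.2), and WT library c was the control nearest to the treated ones. The log2 change of -0.40 (SE 0.16) passed the authors' adjusted p (0.00116 in the authors' deposited table) and not limma's (adjusted p = 0.0521), and with scaling to the listed regions it was 0.10. The authors' enrichment ratio pointed the other way, with 5.89 in treated and 3.77 in untreated cells in the authors' deposited table. In the Fzd1 region's class of 832 regions with TNF, 44.7% had a lower log2 change.

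**Figure D2:**
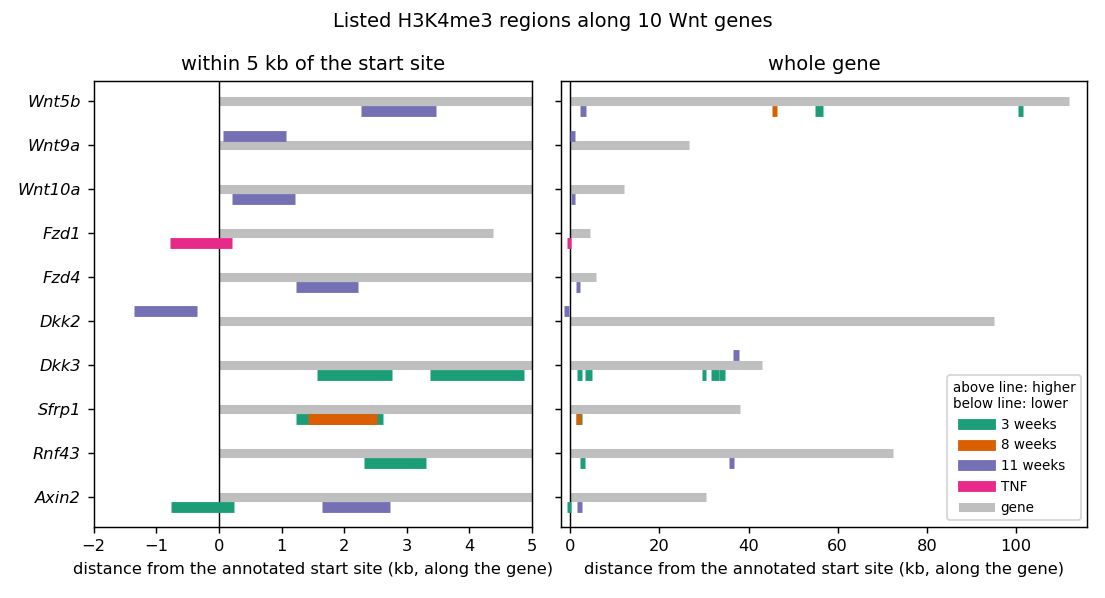
Position of each listed region along its gene (horizontal axis, kb from the annotated TSS, left within 5 kb and right over the whole gene), with regions above the gene line higher and those below it lower in the treated group. Regions of Axin2 at 3 weeks and Fzd1 with TNF cross the start, and the Sfrp1 regions of 3 and 8 weeks lie on each other.

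Among the secreted proteins, Sfrp1 was lower at 3 and 8 weeks, Dkk2 rose at 11 weeks, and Dkk3 fell at 3 weeks and rose at 11 weeks at different places in the gene. Sfrp1 encodes an inhibitor that binds Wnt ligands. At 3 weeks its region (chr8:24523201-24524600, mm9), 1228 to 2627 bp downstream of the TSS, held 136.7, 74.2 and 89.6 in Tg197 cells against 218.4, 186.7 and 179.9 in WT. The highest Tg197 library, a, stayed below the lowest WT library, and the region fell to 51.4% of WT (log2 change -1.0, SE 0.22, limma adjusted p = 0.0143). In the class of regions 1 to 3 kb from a TSS, 2.8% of 1585 had a lower change at 3 weeks.

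The 8 week Sfrp1 region (chr8:24523401-24524500, mm9) lay wholly within that of 3 weeks, with an overlap of 1100 bp, and this was the only pair among the 13 pairs of regions of the same gene in different tables that overlapped. It held 102.6, 94.4 and 125.1 in Tg197 cells against 157.9, 177.5 and 208.7 in WT. The groups again did not overlap, and here WT library c was the highest of all. The log2 change was -0.75 (SE 0.23), which passed the authors' adjusted p (0.000264 in the authors' deposited table) and not limma's (adjusted p = 0.0725). In its class of 561 regions at 8 weeks, 34.2% had a lower change. Under scaling to the listed regions the Sfrp1 changes were -0.33 at 3 weeks and -0.04 at 8 weeks. Neither passed limma under that scaling (adjusted p = 0.703 and 0.931).

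Dkk2 encodes a Dickkopf protein that acts at the Lrp coreceptors. Its region lay upstream of the gene, from position -1354 to -355 bp relative to the TSS (chr3:131746901-131747900, mm9), and held 133.9, 103.5 and 98.8 in Tg197 cells of 11 weeks against 78.4, 72.4 and 65.2 in WT. It rose 1.56-fold (112.0 ± 19.0 against 72.0 ± 6.6, log2 change 0.63, SE 0.18, limma adjusted p = 0.00589), with all Tg197 libraries above all WT libraries. The WT level was the lowest per kb of the 21 regions, at 72.0 normalized reads, and 2.2% of the 672 regions of its class were lower. In that class 93.5% had a lower log2 change.

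Dkk3, a Dickkopf relative whose protein is not a typical Wnt inhibitor, had 6 regions, more than any other gene of the set. At 3 weeks there were 5, all of which fell, 2 of them 2.2 and 4.1 kb downstream of the TSS and 3 from 30.0 to 34.1 kb, in a gene of 43.0 kb. The region with the lowest limma p of the 5 (chr7:119269201-119271000, mm9, 32.5 kb) held 123.2, 111.9 and 146.7 in Tg197 cells against 230.0, 186.7 and 237.8 in WT, a fall of 0.78 (SE 0.18, limma adjusted p = 0.0143). The region nearest the start (chr7:119299801-119301000, mm9) held 139.9, 150.2 and 158.9 against 246.8, 173.2 and 213.2 and fell by 0.48 (SE 0.18, limma adjusted p = 0.0237). The groups were close there, the lowest WT library, b, lying just above the highest Tg197 library. The region at 34.1 kb (chr7:119267901-119269100, mm9) held 85.1, 67.3 and 110.0 against 146.0, 138.6 and 194.7, with a change of -0.88. At 30.0 kb (chr7:119272101-119273100, mm9) the values were 95.4, 57.4 and 82.8 against 132.3, 114.0 and 118.3 (-0.66). At 4.1 kb (chr7:119297701-119299200, mm9) they were 147.8, 131.0 and 187.4 against 203.7, 215.7 and 232.9 (-0.50). Library b was the lowest Tg197 library at 4 of the 5 regions, all but the one nearest the start. Among the 6357 gene-body regions at 3 weeks, 19.8% and 38.9% had a lower change than those at 34.1 and 32.5 kb. For those at 30.0 and 4.1 kb the shares were 69.4% and 97.0%. For the region nearest the start the share was 85.1% of 1585 regions 1 to 3 kb from a TSS. At 11 weeks a region 37.2 kb downstream (chr7:119264701-119266000, mm9) held 157.4, 192.6 and 136.5 in Tg197 cells against 104.9, 112.5 and 112.3 in WT and rose 1.48-fold (log2 change 0.55, SE 0.15, limma adjusted p = 0.00499). It was 1.9 kb from the nearest 3 week region, and the difference between the ages was not tested, since the tables list different regions and were normalized separately. Among the 2926 gene-body regions at 11 weeks, 79.1% had a lower change than this region, and 24.8% rose.

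Rnf43, a membrane ligase that clears Frizzled receptors and is itself induced by Wnt signalling, had the lowest ratio of means to WT of the set in each of the tables that listed it. At 11 weeks Wnt10a was close by that measure (50.1% against 49.2%) and had the lower log2 change (-1.05 against -1.01). At 3 weeks the Rnf43 region from 2313 to 3312 bp downstream of the TSS (chr11:87478901-87479900, mm9) held 40.5, 34.2 and 67.9 in Tg197 cells against 115.5, 107.3 and 122.0 in WT. It fell to 41.4% of WT (log2 change -1.32, SE 0.36, limma adjusted p = 0.0143), and 0.2% of the 1585 regions of its class had a lower change. At 11 weeks a region 36.3 kb downstream (chr11:87512301-87513400, mm9) held 66.4, 51.2 and 62.0 against 117.0, 142.2 and 105.6 and fell to 49.2% (log2 change -1.01, SE 0.19, limma adjusted p = 0.00434). Of the 2926 gene-body regions at 11 weeks 1.6% had a lower change. In both tables the highest Tg197 library was below the lowest WT library.

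The 11 week Rnf43 region ran from 35713 to 36812 bp downstream of the annotated TSS. RefSeq lists a downstream Rnf43 start 36810 bp from the upstream one, and the gene spans 72452 bp from start to end in both the deposited annotation and RefSeq. On that shared scale the downstream start falls inside the region, at its far end. No coordinate was converted between mm9 and GRCm38.p6. Its sequence, shown above, had a GC content of 44.3%, against 83.3% at Wnt9a and 70.0% at Axin2. The other RefSeq starts within genes of the set, those of Wnt5b 77.1 and 95 kb downstream, lay in no listed Wnt5b region.

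Axin2 fell at both 3 and 11 weeks. At 3 weeks the region over its start (chr11:108780901-108781900, mm9), from position -761 to 238 bp, held 87.4, 78.9 and 78.8 in Tg197 cells against 106.1, 121.8 and 157.7 in WT. The 3 Tg197 libraries were close to each other and all below WT, and the region fell by 0.63 (81.7 ± 5.0 against 128.5 ± 26.5, SE 0.21, limma adjusted p = 0.0162). Its class had a median change of 0.34, and 16.2% of its 954 regions had a lower change. At 11 weeks a region from 1639 to 2738 bp downstream (chr11:108783301-108784400, mm9) held 68.5, 110.7 and 113.0 against 149.0, 171.8 and 143.8. It fell by 0.70 (SE 0.19, limma adjusted p = 0.00497), with Tg197 library a the lowest and all WT libraries above all Tg197 libraries. In the class of the 11 week region (861 regions, 1 to 3 kb from a TSS) 15.9% had a lower change. The 2 Axin2 regions were 1.4 kb apart.

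By table, all 10 regions at 3 weeks fell by limma. Of the 13603 listed regions 88.9% fell and 4.68% rose, and by the authors' adjusted p 89.5% were lower and 9.71% higher. The median log2 change was -0.78 in the set and -0.70 over the table. Groups did not overlap at any of the 10, and over the table they were apart in the lower direction at 86.4% of regions and in the higher at 6.29%. With all libraries the 10 regions and 94.0% of the table had an unadjusted p under 0.05. Without WT library c of 3 weeks, limma called none of the 10 (adjusted p from 0.0646 to 0.0808) nor any region of the table, and 7 of the 10 and 71.9% of the table had an unadjusted p under 0.05. When WT library a was left out, 5 fell, as did 58.9% of the table.

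At 8 weeks both regions were lower by the authors' adjusted p, as were 77.2% of the 2923 listed regions, with 20.2% higher. Limma and voom called 0 of both, limma called 0% of the table, and both had an unadjusted limma p under 0.05, as had 64.2% of the table. Groups did not overlap at either region, and over the table they were apart in the lower direction at 46.3% and in the higher at 16.9%. Without WT library c of 8 weeks both fell by limma (adjusted p 0.00259 and 0.0194), as did 76.5% of the table.

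At 11 weeks limma called 5 regions lower and 3 higher, against 67.7% and 29.6% of the 6593 listed regions, and the authors' adjusted p gave 67.0% and 29.8%. The median change was -0.62 in the set and -0.60 over the table. Groups did not overlap at any of the 8, against 67.1% apart in the lower and 28.8% in the higher direction over the table, and 97.3% had an unadjusted p under 0.05. Leaving out any single library left all 8 past limma.

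In the TNF table limma called the Fzd1 region neither way and voom called it lower, as it did 51.1% of the table, while limma called 42.6% of 3082 regions lower and 16.5% higher. By the authors' adjusted p 72.3% were lower, as Fzd1 was, and 24.6% higher. Its unadjusted limma p was 0.0344, and 79.3% of the table had one under 0.05. Groups were apart in the lower direction at 51.8% and in the higher at 22.4% of regions. Without WT library c of 8 weeks the Fzd1 region fell (limma adjusted p = 0.02), as did 68.4% of the table. Of the 10 regions at 3 weeks 5 belonged to Dkk3 alone.

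**Figure D3:**
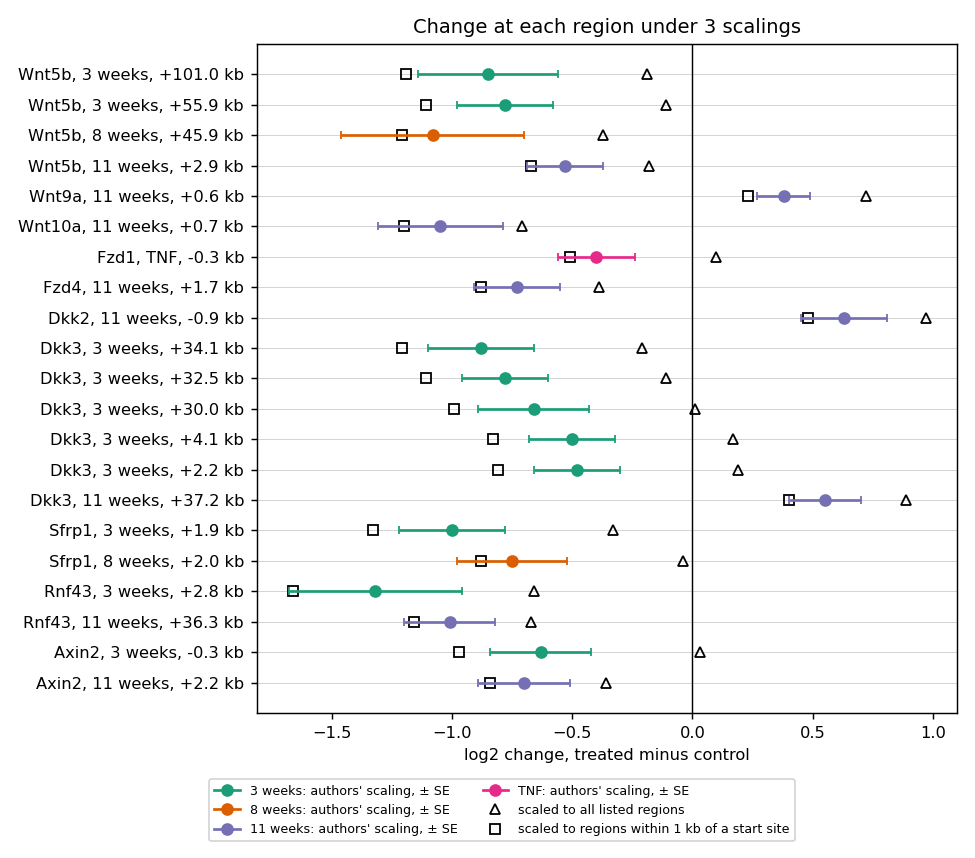
Log2 change of each region (horizontal axis, treated minus control) with the authors' scaling (filled points, bars are the standard error) and after scaling to the listed regions (triangles) or to those within 1 kb of a TSS (squares). Rnf43, Wnt10a, Wnt9a, Dkk2 and the 11 week Dkk3 region keep their side of 0 under all 3, and Fzd1, the 3 week Axin2 region and 3 of the 5 Dkk3 regions at 3 weeks cross it.

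Directions depended on the scaling at 5 regions. With scaling to the listed regions the change was 0.03 at Axin2 at 3 weeks, 0.01, 0.17 and 0.19 at 3 Dkk3 regions at 3 weeks and 0.10 at Fzd1 with TNF, and none of these 5 passed limma. Under that scaling 0 of the 10 regions at 3 weeks passed limma, and 0.0441% of the table fell and 6.91% rose. At 11 weeks Wnt9a (0.72), Dkk2 (0.97) and Dkk3 (0.89) rose and Wnt10a (-0.71) and Rnf43 (-0.67) fell under it, where 31.5% of the table rose and 10.3% fell. Authors' enrichment ratios were lower in the treated group at 16 of the 18 lower regions and higher at the 3 higher ones, and the exceptions were Fzd1 and the Dkk3 region 2.2 kb from its start, with 3.67 and 3.59.

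By position, none of the 21 regions belonged to the class within 250 bp of a TSS, which held 4.11% of all listed regions, 5 lay between 250 bp and 1 kb, 7 between 1 and 3 kb and 9 in gene bodies. The regions were 1000 to 1800 bp long and held between 31 and 415 reads in a library. At 3 weeks 88.6% of the listed regions 1 to 3 kb from a TSS and 99.0% of those in gene bodies were lower in Tg197, against 9.72% of those within 250 bp. The classes 250 bp to 1 kb from a TSS were lower in 34.3% of cases at 3 weeks and in 41.8% at 11 weeks. Axin2 at 3 weeks and Wnt10a at 11 weeks were lower in a class most of whose regions were higher.

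A wider Wnt list of 73 other genes was counted the same way. At 3 weeks 26 of them had 63 regions, of which 60 fell and 2 rose by limma (median -0.70, against -0.70 over the table), the latter at Ccnd1 and at Fzd3, a receptor of the planar polarity branch. At 8 weeks 9 genes had 11 regions, 9 lower and 2 higher by the authors' adjusted p, limma called 0 and voom 0, and 8 had an unadjusted limma p under 0.05. Over the 8 week table the authors' adjusted p gave 77.2% lower and 20.2% higher, and 64.2% had an unadjusted limma p under 0.05. At 11 weeks 22 genes had 42 regions, of which 33 fell and 8 rose (median -0.62 against -0.60), and with TNF 9 genes had 12 regions, of which 3 fell and 1 rose by limma. Over the whole tables limma called 67.7% lower and 29.6% higher at 11 weeks, and 42.6% lower and 16.5% higher with TNF. By role, the 3 regions of other ligands at 3 weeks, the 10 of other secreted antagonists and their receptors and the 10 of the R-spondin arm all fell, and of 13 receptor regions 12 fell and 1 rose. Of all listed regions 88.9% fell, and 98.2% of those in gene bodies, where 20 of these 23 ligand, antagonist and R-spondin regions lay.

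**Figure D4:**
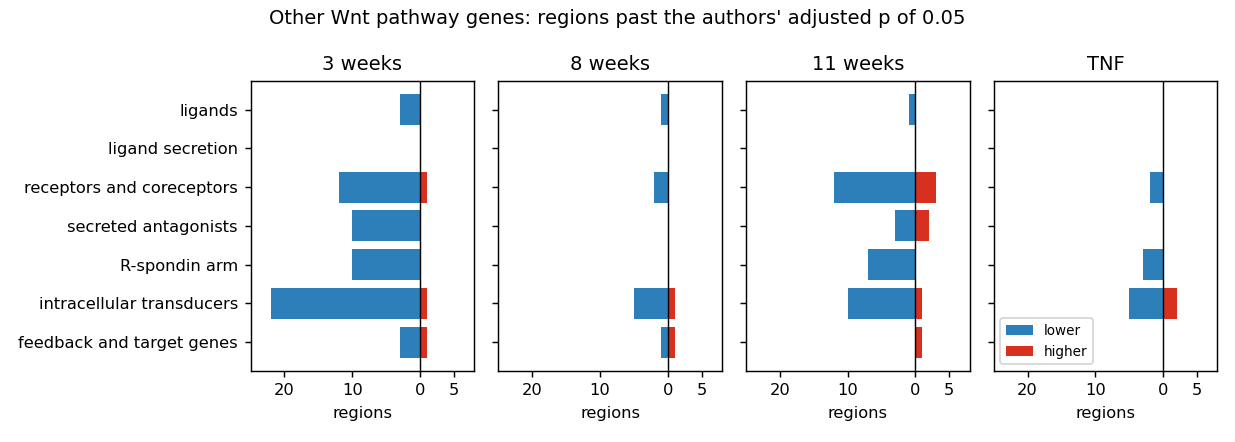
Number of regions of 73 other Wnt pathway genes past the authors' adjusted p of 0.05, by role (rows) and comparison (panels), with lower regions to the left of 0 and higher regions to the right. Lower regions outnumber higher ones in every panel, with 60 against 3 at 3 weeks and 33 against 7 at 11 weeks. Over all listed regions the same cutoff gave 89.5% lower and 9.71% higher at 3 weeks, and 67.0% and 29.8% at 11 weeks.

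The genes of that list with promoter regions called in at least 2 tables by the authors' test were Ccnd1, Fzd8, Kremen1, Lgr5 and Tle2. Ccnd1, which encodes cyclin D1, had a higher region inside the gene at each age, and these regions overlapped but had different bounds. That of 3 weeks rose (589.4 ± 28.2 against 408.2 ± 107.6, limma adjusted p = 0.0217), as did that of 11 weeks (237.7 ± 12.7 against 166.4 ± 4.6, limma adjusted p = 0.00434). The 8 week region held 262.3 ± 4.0 against 191.1 ± 15.9 (limma adjusted p = 0.0725). With scaling to regions near a TSS the changes were 0.23 at 3 weeks, 0.33 at 8 weeks and 0.37 at 11 weeks. With scaling to the listed regions they were 1.23, 1.17 and 0.86. A region upstream of the Ccnd1 start fell at 3 weeks (log2 change -0.48, limma adjusted p = 0.0353), with a change of 0.19 under scaling to the listed regions. Another upstream region held 93.0 ± 15.5 in Tg197 against 156.4 ± 51.8 in WT at 8 weeks, with overlapping groups (limma adjusted p = 0.084, change 0.01 under that scaling). Gene-body regions 4.8 and 8.8 kb from the Ccnd1 start fell at 3 weeks by 0.62 and 0.61 (0.05 and 0.06 under that scaling). The receptor gene Fzd8 fell by 0.70 upstream of its start at 3 weeks and by 0.38 over its start at 11 weeks, with -0.04 at both under scaling to the listed regions. Kremen1, a receptor for Dkk proteins, fell by 0.57 upstream of its start at 3 weeks and by 0.57 downstream of it at 11 weeks, with 0.10 and -0.23 under that scaling. Its gene-body region at 61.1 kb rose at 11 weeks (log2 change 0.58, limma adjusted p = 0.0194), while those at 46.7 and 23.0 kb fell by 0.45 and 0.67. At 3 weeks the listed Kremen1 gene-body regions, from 3.1 to 66.4 kb, all fell. Lgr5, an R-spondin receptor, fell by 0.59 at 11 weeks and had 121.1 ± 7.3 against 180.4 ± 49.2 with TNF (limma adjusted p = 0.0781). Its groups overlapped with TNF, and under scaling to the listed regions the changes were -0.24 at 11 weeks and -0.03 with TNF. Tle2, a corepressor that binds TCF/LEF factors, fell by 0.64 at 11 weeks and had 140.5 ± 10.3 against 204.4 ± 21.3 at 8 weeks (limma adjusted p = 0.0725). Under scaling to the listed regions its change was -0.30 at 11 weeks and turned to 0.18 at 8 weeks.

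Marker genes could be checked only where a promoter region was listed. Of 12 fibroblast markers, 6 had such a region at 3 weeks, 3 at 8, 4 at 11 weeks and 2 after TNF. Their summed levels overlapped between the groups at 3 weeks (1539.8 to 2297.1 in Tg197, 1649.8 to 1680.7 in WT) and were higher in Tg197 at 8 weeks (577.1 to 701.1 against 463.4 to 565.8) and at 11 weeks (1158.7 to 1245.7 against 881.7 to 989.0). With TNF they overlapped (734.0 to 896.8 against 673.1 to 818.6). By region the fibroblast markers went both ways, with 2 that rose and 2 that fell at 3 weeks. At 8 weeks 2 were higher and 1 lower, at 11 weeks 4 rose, and with TNF 1 rose and 2 were lower without passing limma. Bone markers were lower in all 4 tables: of 4, Runx2 and Sp7 were listed at 3 and 8 weeks and Sp7 at 11 weeks and with TNF, with summed levels of 393.1 to 548.4 in Tg197 against 670.3 to 774.0 in WT at 3 weeks and 214.1 to 324.4 against 380.8 to 412.5 at 11 weeks. They were 173.1 to 240.0 against 289.4 to 395.9 at 8 weeks, and 118.8 to 218.9 against 295.3 to 344.9 with TNF. Cartilage markers (of 4, Comp in all tables and Sox9 at 8 weeks and with TNF) were also lower and apart in each, with 326.3 to 392.2 against 528.6 to 558.4 at 8 weeks and 369.0 to 489.7 against 649.0 to 736.2 with TNF. Listed muscle (Ckm) and epithelial (Cdh1) markers were lower at 3 weeks and the fat marker Adipoq at 11 weeks, while the nerve sheath marker Sox10 rose at 11 weeks. Ckm was also lower at 8 weeks (40.6 to 75.2 against 75.3 to 158.7). Endothelial markers were listed at 3 weeks (Flt1 and Tek) and 11 weeks (Pecam1 and Tek), and each time 1 region rose and 1 fell. Most listed regions were lower in each table, as given above. Of 6 leukocyte markers, Itgam was listed at 3 weeks, with 53.9 to 93.8 in Tg197 against 114.0 to 129.4 in WT, Cd79a and Fcer1g at 8 weeks and none at 11 weeks or with TNF. The part of other cell types in the Wnt results was not tested, and fewer cells of a type and less mark per cell cannot be told apart.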

How the data were processed

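H3K4me3 ChIP-seq of 21 libraries in 7 groups of 3 was analysed from 4 deposited tables, and 1 input library was not analysed here. Named without roles in the submitters' processing notes are the mm9 build and BWA, TopHat, TopHat2, Cufflinks and Cuffdiff, and no label names the region caller. Each region has 3 normalized counts per group in 1 cell, per the file headers, and the deposited group averages (signal) are their means. Enrichment is the authors' ratio, whose denominator no label states. Fold changes of the authors are log2 values, and the deposited p-value columns hold their test's p and adjusted p. Headers say treatment and control, and control was read as WT: in 54 regions shared by the 8 week and TNF tables, recovered control reads were equal for 162 of 162 values. At 3 and 11 weeks control was read as WT from the header word alone, and the directions there rest on it. Whole reads were recovered within 0.02 normalized reads in all values.

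For each table, log2(normalized count + 0.5) was fitted over all regions, unfiltered, with limma 3.58.1 (R 4.3.3) and a variance trend, and was tested on simulated data. The simulation changed a small part of the regions, equally in both directions. It does not show how the fit performs where most regions are lower, as in these data. Shares of promoter stretches were counted in RefSeq. Members were the 10 given genes, and other Wnt genes were named if called at promoters (within 3 kb of a TSS) in at least 2 tables by the authors' adjusted p of 0.05. Members and lists were chosen with earlier results of these data known.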

Additional observations from a re-analysis of the deposited data

Results flagged for a closer look

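Of 8 pairs of overlapping regions of the Wnt genes between ages, 1 pair moved in opposite directions in every library. In Lrp5, which encodes a Wnt coreceptor, the region 16.8 kb downstream of the TSS (chr19:3669001-3670500, mm9) held 121.6, 67.8 and 137.2 in Tg197 cells of 3 weeks against 167.0, 167.7 and 205.8 in WT, a log2 change of -0.78. Its 11 week counterpart (chr19:3669201-3670500) held 152.1, 138.3 and 118.9 against 90.5, 77.6 and 89.9, a log2 change of 0.66. Under scaling to the listed regions the changes were -0.11 and 1.00, and under scaling to regions near a TSS -1.11 and 0.51. Of all listed gene-body regions 99.0% were lower at 3 weeks, and 25.3% were higher at 11 weeks. The difference between the ages was not tested.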

How the results depend on the processing

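Over the 21 regions, 226 of 231 changes under other settings kept their direction, and the 5 that turned, all with scaling to the listed regions, were 0.03 at Axin2, 0.01, 0.17 and 0.19 at Dkk3 and 0.10 at Fzd1. A pseudocount of 5, or leaving out regions under 20 normalized reads, changed no call. The number of regions past limma at 3 weeks, 10, became 0 with scaling to the listed regions and ranged from 0 to 10 when single libraries were left out. Over the 13603 regions of that table, 12733 became 946 and ranged from 0 to 13397. At 8 weeks 0 became 2 with scaling to regions near a TSS, and 2 passed the authors' adjusted p at 0.05 and 2 at 0.001, with 0 to 2 when libraries were left out. Over the 2923 regions of that table these settings called 1729, 2847 and 1554, with 0 to 2563 when libraries were left out. At 11 weeks 8 became 5 with scaling to the listed regions and 5 at the authors' adjusted p of 0.001. Over the 6593 regions of that table, 6414 became 2759 and 3676. With TNF 0 became 1 under voom, 1 with scaling to regions near a TSS and 1 at the authors' adjusted p of 0.05, with 0 to 1 when libraries were left out. Over the 3082 regions of that table, 1823 became 1985, 2167 and 2985, with 0 to 2770 when libraries were left out. The cause was not tested. The edgeR test was not run, since the values used are normalized. No paired analysis was possible because the deposited values carry no replicate number. Unlisted regions have no values, so scaling could not be checked on regions without a difference.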

Other observations

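Lrp5 was the gene of the wider Wnt list with regions in both directions in greatest number at 11 weeks, chosen here after its values were seen. Its regions 0.5, 16.7 and 49.1 kb downstream of the TSS rose, with log2 changes of 0.39, 0.66 and 0.81, and those 3.2, 80.2 and 86.0 kb downstream fell, with -0.69, -0.82 and -0.75 (limma adjusted p from 0.00434 to 0.0123). The region at 0.5 kb held 276.0 ± 49.5 in Tg197 cells against 208.9 ± 16.4 in WT, and that at 3.2 kb 104.4 ± 8.4 against 168.6 ± 14.9 (n = 3 each). The directions were the same under both other scalings. Apc, which encodes a scaffold of the beta-catenin destruction complex, rose over its start with TNF (264.3 ± 25.1 against 177.3 ± 13.9, log2 change 0.57, limma adjusted p = 0.046). In its class of 257 regions within 250 bp of a TSS, 49.0% rose with TNF and the median log2 change was 0.44.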
